A study of Mus musculus with 9 samples.

Results

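The S100 genes encode small calcium-binding proteins, and 10 of them were followed here in mouse brain tissue beside an infarct: S100a1, S100a4, S100a6, S100a8, S100a9, S100a10, S100a11, S100a13, S100a16 and S100b. They were taken by gene name from an RNA-seq table of 55401 genes, and all 10 were found and had a mean of at least 0.5 FPKM, read fragments scaled to gene length and library size, over the 9 libraries, the level required for testing. The table lists 8 further S100 genes, S100a2, S100a3, S100a5, S100a7a, S100a7l2, S100a14, S100g and S100z. None of those reached that level, S100a7l2 and S100z had no count in any library, and the FPKM of all 8 summed to between 0.38 and 0.81 per library.

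The libraries came from 3 groups of 3, and per the labels all mice were of WT genotype and the tissue was brain, collected around the infarct at day 28. The Pushen group had a photothrombotic stroke (PT), a model in which light and a photosensitive dye close cortical vessels, and received Pushen, a commercial drug preparation dissolved in ultrapure water, by gavage from the day after surgery for 28 days. Per the labels the doses were 391, 392 and 393 mg/kg in libraries 1, 2 and 3, and the 3 were read as a single group. The PT group had the stroke and received ultrapure water, and the Sham group had sham surgery and the same water. The sources used here name no strain, sex or age, nor whether a library was 1 animal or a pool. The p-values therefore rest on the spread of 3 libraries a group, and that spread may be technical only.

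S100 proteins carry a pair of EF-hand loops, the helix-loop-helix fold that holds a calcium ion, and most work as dimers that open a binding surface when calcium arrives. Inside cells they bind annexins, cytoskeletal proteins and ion pumps. Some are released from cells and then act on receptors such as RAGE, encoded by Ager, and the Toll-like receptor encoded by Tlr4. In brain S100B is best known from astrocytes and cells of the oligodendrocyte lineage, while S100A8 and S100A9 pair as calprotectin, which neutrophils and monocytes store in bulk. In the Gene Ontology terms of the deposited table, calcium ion binding was attached to 10 of 10 members, and to 705 of 21970 genes with any term. RAGE receptor binding was attached to 5 of 10 members (S100a4, S100a8, S100a9, S100a13 and S100b), among 10 genes in all with that term.

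Total counts were 57437342 to 73499628 per Pushen library, 64482908 to 75100133 per PT library and 66775462 to 72646409 per Sham library. Brain markers were present throughout, with Rbfox3, a nuclear protein of neurons, at 42.6 to 64.4 FPKM, although the labels' extraction protocol speaks of retinas. The astrocyte filament gene Gfap was at 301, 295 and 141 FPKM in Pushen libraries 1, 2 and 3, at 443, 357 and 187 FPKM in PT libraries, and at 12.5, 12.7 and 20.3 FPKM in Sham libraries. Pushen library 3 stood apart from the other infarct libraries in monocyte and macrophage markers, with a summed 167 FPKM, against 678 and 806 FPKM in Pushen libraries 1 and 2 and 610 to 756 FPKM in PT libraries. PT library 1 stood apart in striatal neuron markers (546 FPKM, against 72.9 to 131 FPKM in the other PT libraries), and PT library 1 and Pushen library 2 in Ttr, a choroid plexus transcript (528 and 607 FPKM, against 17.9 to 146 FPKM in the other infarct libraries). The part of these differences in the results below was not tested. In bulk RNA, fewer cells of a type and less RNA per cell cannot be told apart.

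The PT group was compared with Sham to ask how the S100 genes differed around the infarct at day 28. Of the 10 members 7 rose in PT (S100a1, S100a4, S100a6, S100a10, S100a11, S100a13 and S100b) and 0 fell, at an adjusted p under 0.05 in edgeR's quasi-likelihood test with Benjamini-Hochberg adjustment over 16740 genes. Of all tested genes 19.1% rose and 11.8% fell. All 10 had a positive log2 fold change, with a median of 0.97 beside a median of -0.003 over all tested genes. The 3 PT libraries lay fully above the 3 Sham libraries for 9 of 10 members, S100a16 being the exception, and for 29.3% of all tested genes. The 7 members that rose remained called in each of 9 fits that left out 1 library, and also with PT library 1 and Pushen library 2 both left out. When the test was against a 2-fold change instead of no change, 2 members passed, S100a4 and S100a11, against 4.7% of all tested genes.

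**Figure D1:**
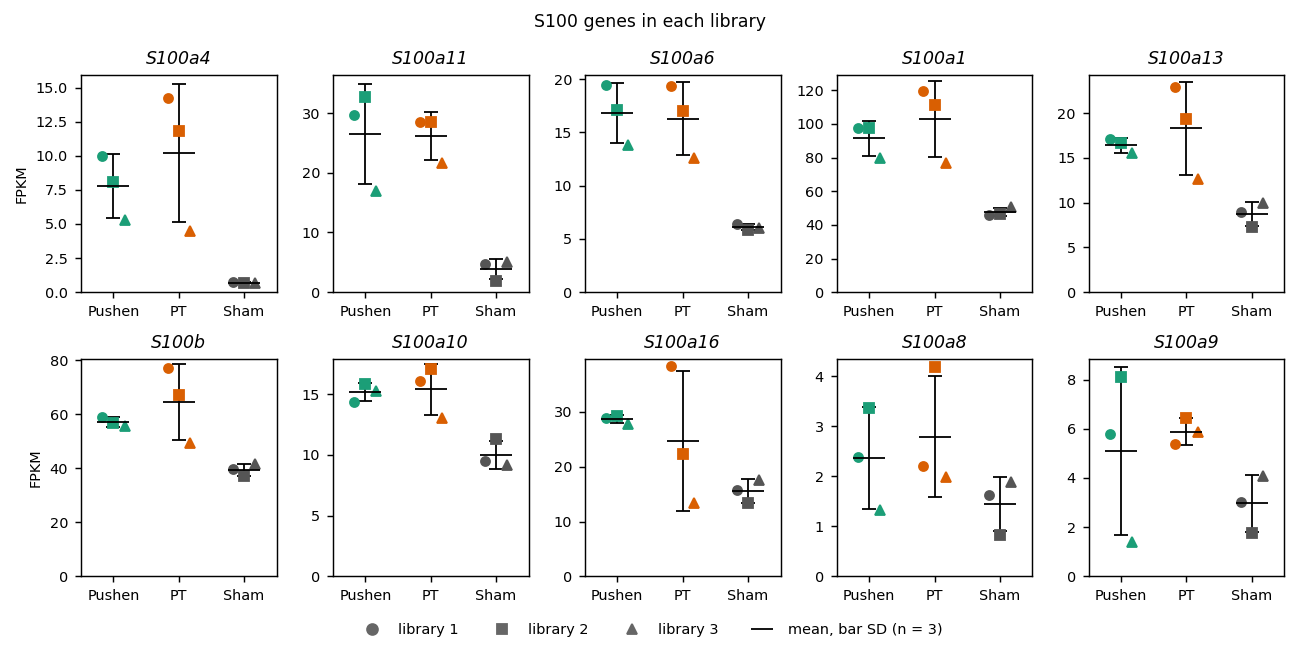
FPKM of each S100 gene in every library, with Pushen, PT and Sham from left to right in each panel, symbols for libraries 1 to 3, and the mean with its SD (n = 3). S100a4 and S100a11 show the widest separation of both infarct groups from Sham, at group means of 7.79, 10.2 and 0.69 FPKM for S100a4 and 26.5, 26.2 and 3.91 FPKM for S100a11, while S100a8 and S100a9 overlap between Pushen and Sham.

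S100a4 encodes a protein that binds non-muscle myosin and is known from motile fibroblasts and macrophages, and it had the largest fold change of the 10 members in PT. It was at 14.21, 11.80 and 4.52 FPKM in PT libraries 1, 2 and 3, and at 0.72, 0.71 and 0.64 FPKM in Sham libraries. All PT libraries were far above all Sham libraries, and PT library 3 was the lowest of its group. The fitted rise was 13.6-fold, with a 95% interval of 6.83 to 27.1, a log2 fold change of 3.77 ± 0.44 (SE) and an edgeR adjusted p of 0.000642. Of all tested genes 98.3% had a smaller log2 fold change. The Sham value rests on 33, 36 and 30 counts, and on a log2(FPKM + 1) scale, which compresses low values, the difference was 2.6. The annotated gene overlaps Gm42674 on the same strand, so that reads of the pair may have been counted for either, and its value is uncertain to that extent.

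S100a11 encodes a partner of annexin A1, and it rose in PT by 6.43-fold, with a 95% interval of 3.54 to 11.7. It was at 28.57, 28.48 and 21.56 FPKM in PT libraries 1, 2 and 3, and at 4.80, 1.91 and 5.01 FPKM in Sham libraries. The groups did not overlap, and Sham library 2 was the lowest of all 9 libraries, with 81 counts. The log2 fold change was 2.68 ± 0.38 (SE) with an edgeR adjusted p of 0.00134.

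S100a6, which encodes calcyclin, a binding partner of the ubiquitin-ligase component CacyBP, rose in PT by 2.57-fold. It was at 19.33, 17.00 and 12.57 FPKM in PT libraries and at 6.41, 5.83 and 6.03 FPKM in Sham libraries, with no overlap and little spread in Sham. The log2 fold change was 1.36 ± 0.17 (SE) with an edgeR adjusted p of 0.000834.

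These 3 genes moved beside marker lists of other cells. All 11 tested fibroblast and meningeal markers rose in PT, with summed levels of 137 to 201 FPKM in PT and 26.5 to 29.0 FPKM in Sham. Of 10 tested monocyte and macrophage markers 9 rose, with sums of 610 to 756 FPKM in PT and 13.3 to 16.3 FPKM in Sham, while Ccr2, which marks recruited monocytes, was at 0.23 to 0.52 FPKM in PT and 0.01 to 0.04 FPKM in Sham. Their part in the S100 results was not tested.

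The windows of RefSeq promoters, from 250 bases before the start base to 49 after it in GRCm38.p6, are shown for the 2 members with the largest fold changes, 5′ to 3′ on the strand of the gene. Capitals mark exact matches, on either strand, to 5 motifs. The TATA box was searched as TATAAA and the Sp/KLF box as GGGCGG. The AP-1 site was searched as TGANTCA. The C/EBP site was searched as TTGCNNAA. The STAT site was searched as TTCNNNGAA. The first window is at chr3:90603520-90603819 on the plus strand and the second at chr3:93520246-93520545 on the plus strand.
S100a4: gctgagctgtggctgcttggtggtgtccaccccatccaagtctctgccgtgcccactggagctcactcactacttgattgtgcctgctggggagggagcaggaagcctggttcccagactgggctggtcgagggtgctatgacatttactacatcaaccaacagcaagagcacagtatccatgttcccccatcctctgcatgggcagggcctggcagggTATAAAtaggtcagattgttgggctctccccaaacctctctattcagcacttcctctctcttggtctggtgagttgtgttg
S100a11: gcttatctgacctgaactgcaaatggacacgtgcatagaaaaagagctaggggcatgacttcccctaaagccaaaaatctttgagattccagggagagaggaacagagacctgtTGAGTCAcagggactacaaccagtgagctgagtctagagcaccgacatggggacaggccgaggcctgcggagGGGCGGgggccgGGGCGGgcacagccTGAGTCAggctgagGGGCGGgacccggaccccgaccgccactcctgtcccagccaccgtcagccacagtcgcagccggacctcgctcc
In the S100a4 window the TATA box lies at -31 to -26, counting the start base as 0. The S100a11 window has none, and holds the Sp/KLF box at 3 places and the AP-1 site at -136 to -130 and at -38 to -32. These 2 rising genes thus share none of those motifs in this window. The TATA box is in 13.6% of 32851 RefSeq promoters, the Sp/KLF box in 35.7% and the AP-1 site in 7.81%. A match is a description of the letters and not a measured site.

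S100a1, known for regulating calcium release and calcium pumps in muscle and neurons, had the highest FPKM of the members in every group. It was at 119.6, 111.5 and 76.99 FPKM in PT libraries 1, 2 and 3, and at 45.63, 46.76 and 50.60 FPKM in Sham libraries, with no overlap. The fitted rise in PT was 2.07-fold, a log2 fold change of 1.05 ± 0.15 (SE) with an edgeR adjusted p of 0.00159. S100a13, whose protein takes part in the release of the growth factor FGF1, was at 22.89, 19.35 and 12.66 FPKM in PT libraries and at 8.92, 7.32 and 9.99 FPKM in Sham libraries. It too had no overlap, and rose 2.01-fold, with a log2 fold change of 1.01 ± 0.21 (SE) and an edgeR adjusted p of 0.00750.

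S100a1 and S100a13 are divergent neighbours on chromosome 3. In the annotation of the table's build the 5′ end of S100a1, on the minus strand, is at 90514392. S100a13 starts at 90514435 on the plus strand, which leaves 42 bases between them. Their RefSeq start bases are 105 bases apart, and their promoter windows share 204 bases. The S100a13 window, at chr3:90514185-90514484 on the plus strand, therefore shows 204 of the 300 bases of the S100a1 window too. The rest of the S100a1 window, upstream of that gene, runs on to 90514580 and is not shown. Capitals here mark the 106 bases from the S100a1 start base to the S100a13 start base.
S100a13: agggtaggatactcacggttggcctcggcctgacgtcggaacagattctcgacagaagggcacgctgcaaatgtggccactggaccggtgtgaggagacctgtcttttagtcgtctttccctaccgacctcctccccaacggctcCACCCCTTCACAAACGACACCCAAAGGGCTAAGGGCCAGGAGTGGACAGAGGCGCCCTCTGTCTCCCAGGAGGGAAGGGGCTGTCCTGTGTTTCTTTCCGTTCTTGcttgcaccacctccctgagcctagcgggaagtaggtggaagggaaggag
None of the 5 motifs was matched in the window of S100a1 or of S100a13. Over the 9 libraries the centred log2 profile (log2 of counts scaled to library size, less the mean of each gene) of S100a1 differed from that of S100a13 by a root mean square of 0.116. This is the closest pair among the 10 members. Among 12397 protein-coding genes S100a1 was the 11th nearest to S100a13, while S100a13 was the 68th nearest to S100a1, so other genes were closer to each. The nearest to S100a1 were Slc16a1, a lactate transporter (0.043), Entpd2 (0.060) and Prdx6 (0.063), and to S100a13 they were Abca8a (0.083), Mcam (0.088) and Abhd4 (0.095).

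S100b encodes the classical astrocyte member and stood second in mean FPKM in every group. It was at 77.04, 67.16 and 49.34 FPKM in PT libraries 1, 2 and 3, and at 39.57, 37.17 and 41.66 FPKM in Sham libraries, again with no overlap. The fitted rise in PT was 1.57-fold (log2 0.65 ± 0.14 SE, edgeR adjusted p = 0.00887). S100b lies at chr10:76253853-76261159, away from the cluster, and overlaps Dip2a on the opposite strand. No source used here says whether counting went by strand, so reads of the pair may be mixed.

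S100a10 encodes p11, which binds annexin A2 and has lost the ability to bind calcium. It was at 16.13, 17.06 and 13.06 FPKM in PT libraries and at 9.51, 11.30 and 9.18 FPKM in Sham libraries, with no overlap. Its rise in PT was the smallest of the 7, at 1.48-fold (log2 0.57 ± 0.12 SE, edgeR adjusted p = 0.00958). S100a16 was at 38.43, 22.38 and 13.30 FPKM in PT libraries and at 15.80, 13.30 and 17.64 FPKM in Sham libraries. Here PT library 3 equalled the lowest Sham library, and the log2 fold change of 0.61 ± 0.31 (SE) did not pass (edgeR adjusted p = 0.168). Without PT library 3 it was 0.89 with an edgeR adjusted p of 0.0153, and without PT library 1 it was 0.14 with an edgeR adjusted p of 0.673.

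Glial marker lists moved beside these members. Of 12 astrocyte markers 11 rose in PT, with sums of 1373 to 1735 FPKM in PT and 853 to 952 FPKM in Sham. With 1 library left out between 8 and 11 astrocyte markers rose. Aldh1l1, a broad astrocyte marker, was at 15.8 to 19.5 FPKM in PT and 12.6 to 13.6 FPKM in Sham. Of 12 oligodendrocyte markers 8 rose, with sums of 1143, 1105 and 615 FPKM in PT libraries 1, 2 and 3 and of 448 to 608 FPKM in Sham. This count was 3 without PT library 1, 4 without PT library 2, 2 without Sham library 1 and 3 without Sham library 2. The same order, highest in PT library 1 and lowest in PT library 3, held for the astrocyte, microglia, endothelial and fibroblast sums, and for 7 members, S100a1, S100a4, S100a6, S100a11, S100a13, S100a16 and S100b. Their part in the S100 results was not tested.

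S100a8 and S100a9, the calprotectin subunits, did not pass in PT against Sham. S100a8 was at 2.21, 4.19 and 1.99 FPKM in PT libraries and at 1.63, 0.83 and 1.88 FPKM in Sham libraries. The groups were apart by a small margin, and the log2 fold change was 0.88 ± 0.44 (SE, edgeR adjusted p = 0.160). S100a9 was at 5.36, 6.43 and 5.87 FPKM in PT libraries and at 3.04, 1.77 and 4.07 FPKM in Sham libraries, also apart, with a log2 fold change of 0.93 ± 0.54 (SE, edgeR adjusted p = 0.219). Without Pushen library 3, which enters through the shared estimate of spread, S100a9 gave an edgeR adjusted p of 0.0495 in the same comparison.

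Between 48 and 354 counts per library stand behind either calprotectin gene. S100a8 was the gene nearest to S100a9 among 12397, at a root mean square difference of 0.420, although S100a9 was the 174th nearest to S100a8. In PT libraries their orders differed, S100a8 being lowest in library 3 and S100a9 in library 1. The FPKM ratio of S100a8 to S100a9 was 0.411, 0.417 and 0.964 in Pushen libraries 1, 2 and 3, 0.412, 0.652 and 0.339 in PT libraries and 0.536, 0.469 and 0.462 in Sham libraries. Pushen library 3 had the highest ratio, with 67 counts of S100a8 and 51 of S100a9.

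Of 15 neutrophil markers 4 reached the level for testing and 2 of those rose in PT, Lcn2 and Csf3r, which other cells also express. The defining gene Ly6g had no count in 6 of 9 libraries and at most 0.14 FPKM, Mpo was at 0.01 to 0.18 FPKM and Elane at 0 to 0.33 FPKM. Cxcr2, also below the level for testing, was higher in every PT library than in any Sham library. It was at 0.38, 0.21 and 0.15 FPKM in PT libraries 1, 2 and 3 and at 0.05, 0 and 0.04 FPKM in Sham libraries. The summed neutrophil list was 28.7 to 51.6 FPKM in PT and 4.30 to 6.13 FPKM in Sham. Of 5 red blood cell markers 0 were called in edgeR's test in any comparison, with 0 at an unadjusted p under 0.05 and 0 called by DESeq2.

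The promoter windows of S100a8, at chr3:90668821-90669120 on the plus strand, and of S100a9, at chr3:90695672-90695971 on the minus strand, are shown because these 2 genes stand side by side and encode 1 complex. Capitals mark the same motifs as for S100a4.
S100a8: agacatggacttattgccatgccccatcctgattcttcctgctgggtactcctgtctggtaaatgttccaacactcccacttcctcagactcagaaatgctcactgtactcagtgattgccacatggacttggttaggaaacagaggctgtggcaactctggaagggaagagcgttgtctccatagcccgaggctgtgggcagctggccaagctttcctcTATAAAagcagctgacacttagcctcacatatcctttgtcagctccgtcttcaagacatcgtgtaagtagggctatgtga
S100a9: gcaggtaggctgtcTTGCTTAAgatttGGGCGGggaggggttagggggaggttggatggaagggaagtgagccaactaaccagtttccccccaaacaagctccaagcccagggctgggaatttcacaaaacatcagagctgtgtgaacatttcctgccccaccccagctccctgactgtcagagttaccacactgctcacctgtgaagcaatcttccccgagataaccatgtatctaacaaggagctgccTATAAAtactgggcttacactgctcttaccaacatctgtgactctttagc
The TATA box lies at -30 to -25 in the S100a8 window, as near the start as in that of S100a4, and at 0 to 5 in the S100a9 window. The S100a9 window also holds the C/EBP site at -236 to -229, a motif in 10.8% of all promoters, and the Sp/KLF box at -223 to -218. Over 9 members with a window (S100a16 has 2), the TATA box was in 3 (S100a4, S100a8 and S100a9), the Sp/KLF box in 3 (S100a9, S100a11 and S100a16) and the AP-1 site in 2 (S100a11 and S100a16). The C/EBP site was in 1 and the STAT site in 0, against 8.30% of all promoters for the STAT site.

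Pushen was compared with PT to ask whether the drug shifted S100 transcripts in infarct tissue. No member was called, 0 of 10 passed an unadjusted p of 0.05, and the libraries of the groups overlapped for all 10. Over all tested genes 0 (0%) were called in edgeR's quasi-likelihood test, with 1086 at an unadjusted p under 0.05 and 49 called by DESeq2. The libraries of the groups were fully apart and higher in Pushen for 7.25% of tested genes, and lower for 5.19%. The median log2 fold change of the members was -0.17, with 3 of 10 above 0, beside a median of -0.01 over all tested genes. Adjusted p-values of the members lay between 0.725 and 0.999.

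The intervals show what a difference could be. S100a4 was at 10.01, 8.06 and 5.30 FPKM in Pushen libraries 1, 2 and 3, within the range of 4.52 to 14.21 FPKM in PT libraries. Its Pushen over PT ratio was 0.76, with a 95% interval of 0.418 to 1.38. S100a11 was at 29.72, 32.68 and 16.97 FPKM in Pushen libraries, with both the highest and the lowest value of the 2 infarct groups, and its ratio was 1.00 with a 95% interval of 0.577 to 1.74. S100a6 was at 19.44, 17.07 and 13.86 FPKM in Pushen libraries, nearly the values of PT, with a ratio of 1.02 (95% interval 0.785 to 1.33).

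S100a1 was at 97.84, 97.37 and 79.57 FPKM in Pushen libraries, with a ratio to PT of 0.886 (95% interval 0.698 to 1.12). S100b was at 58.99, 56.72 and 55.48 FPKM, with a ratio of 0.879 (0.706 to 1.09), the smallest adjusted p of the 10 members. S100a13 was at 17.15, 16.63 and 15.52 FPKM, with a ratio of 0.893 (0.647 to 1.23). These 3 genes varied less among Pushen than among PT libraries, and in each PT library 1 was above and PT library 3 below every Pushen library. S100a10 was at 14.40, 15.89 and 15.26 FPKM in Pushen libraries, and its ratio of 0.98 had the narrowest interval of all members, 0.807 to 1.19.

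The spread of S100a16 was smaller in Pushen than in PT, and that of S100a9 larger. S100a16 was at 28.94, 29.33 and 27.87 FPKM in Pushen libraries, a coefficient of variation of 2.63%, against 51.5% for the 3 PT libraries. The ratio to PT was 1.16 with a 95% interval of 0.713 to 1.88, and the coefficient of variation of S100a9 was 67.03% in Pushen and 9.09% in PT. The differences in spread were not tested. S100a8 was at 2.38, 3.37 and 1.33 FPKM and S100a9 at 5.79, 8.09 and 1.38 FPKM in Pushen libraries. For both, library 3 was lower than every PT library, and the intervals of the ratio to PT were the widest of the members, at 0.423 to 1.66 for S100a8 and 0.37 to 1.97 for S100a9.

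**Figure D2:**
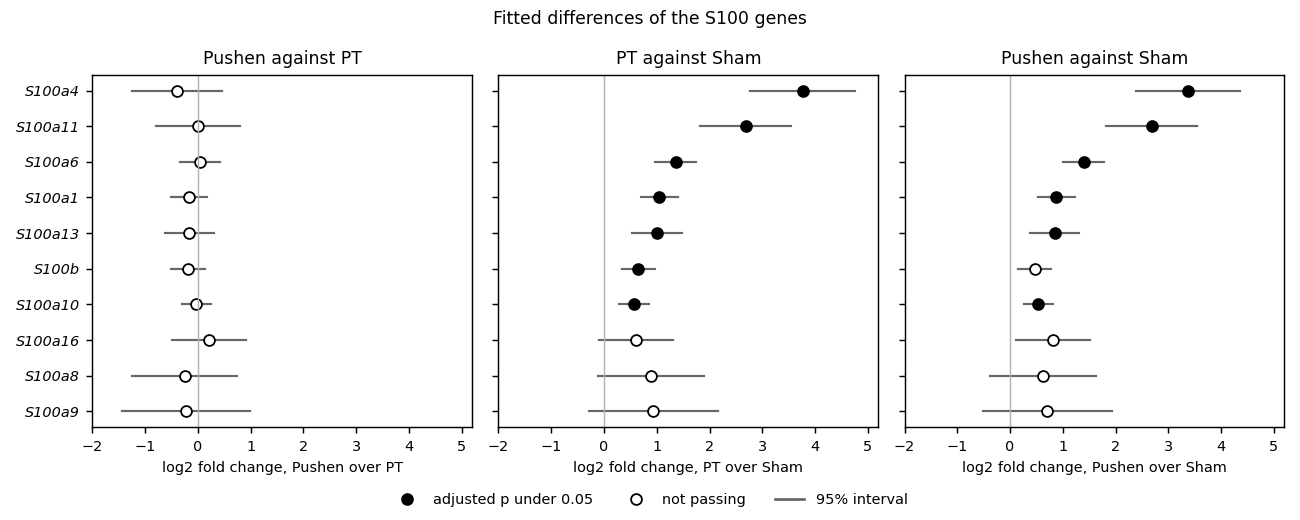
Log2 fold change of each S100 gene with its 95% interval in Pushen against PT, PT against Sham and Pushen against Sham. Filled points passed an adjusted p under 0.05, which no member did against PT, 7 did in PT against Sham and 6 in Pushen against Sham.

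Pushen libraries were also compared with Sham, which shares both groups with the comparisons above. Of the 10 members 6 were higher in Pushen (S100a1, S100a4, S100a6, S100a10, S100a11 and S100a13), 0 were lower, and 13.5% of all tested genes were higher and 2.73% lower. The Pushen libraries lay fully above the Sham libraries for 8 of 10 members, S100a8 and S100a9 being the exceptions, and for 27.2% of tested genes. The median log2 fold change was 0.83 beside -0.01 over all tested genes. Against a 2-fold change 2 members passed, S100a4 and S100a11, and 3.66% of all tested genes. The log2 fold change was 3.37 ± 0.43 (SE) for S100a4, 2.69 ± 0.38 for S100a11, 1.39 ± 0.17 for S100a6 and 0.88 ± 0.15 for S100a1, with edgeR adjusted p-values of 0.00137, 0.00203, 0.00116 and 0.00541. These 4 remained called whichever library was left out, and the number of members called then lay between 4 and 8.

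The other members were close to the threshold. S100a13 had a log2 fold change of 0.84 ± 0.21 (SE, edgeR adjusted p = 0.0252). It was no longer called without Pushen library 1 (0.0796), Pushen library 2 (0.0736), Sham library 1 (0.0714) or Sham library 2 (0.0955). S100a10 had 0.54 ± 0.12 (SE, edgeR adjusted p = 0.0190). It was no longer called without Pushen library 2 (0.0716), Sham library 1 (0.0686), Sham library 3 (0.0706), or PT library 1 and Pushen library 2 together (0.0702).

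S100b had a log2 fold change of 0.47 ± 0.14 (SE, edgeR adjusted p = 0.0530) and was called without PT library 1 (0.0209) or PT library 3 (0.00751). DESeq2 (0.0166) and limma on FPKM (0.0378 and 0.0410 at pseudocounts of 0.1 and 1) also called S100b, as did the fits scaled by library size only (0.0333) and of the 2 groups alone (0.00728). S100a16 had 0.81 ± 0.31 (SE, edgeR adjusted p = 0.108) and was likewise called without PT library 1 (0.0186) or PT library 3 (0.0258), by DESeq2 (0.0367) and in the fit of the 2 groups alone (0.00605). S100a8 had 0.63 ± 0.44 and S100a9 0.71 ± 0.54 (SE), with edgeR adjusted p-values of 0.360 and 0.401. Without Pushen library 3, the log2 fold change of S100a9 was 1.15 with an edgeR adjusted p of 0.0462.

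Across the libraries of 1 group the members tended to be high or low together. Pushen library 3 was the lowest of its group for 9 of 10 members, with S100a10 the exception, and PT library 3 was the lowest for 9 of 10, with S100a9 the exception. PT library 1 was the highest of its group for 7 members. PT library 3 was also lowest of its group in the astrocyte, microglia, endothelial, fibroblast, oligodendrocyte, macrophage and neutrophil sums. Pushen library 3 was lowest of its group in all of these but the oligodendrocyte sum, and the neuron sum was highest in both. The share of all tested genes with such an order was not counted, so the pattern is not shown to be particular to the S100 genes. The share of all counts taken by the 10 genes was 0.0324%, 0.0321% and 0.0279% in Pushen libraries 1, 2 and 3, 0.0398%, 0.0341% and 0.0237% in PT libraries and 0.0168%, 0.0159% and 0.0180% in Sham libraries.

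**Figure D3:**
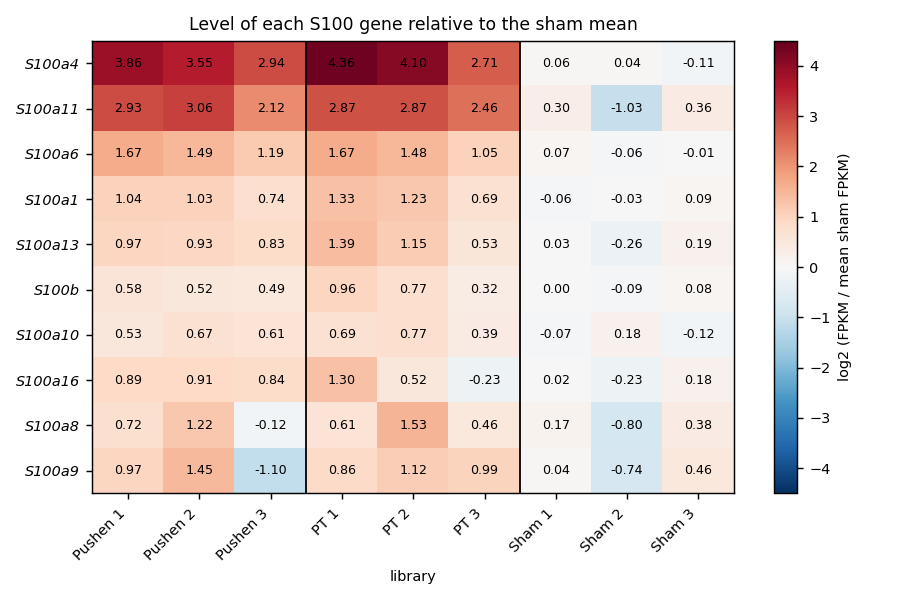
Level of each S100 gene in each library as log2 of FPKM over the mean FPKM of the Sham libraries, with Pushen, PT and Sham libraries from left to right. Values reach 4.36 for S100a4 in PT library 1, PT library 3 is the palest PT column for most genes, and S100a9 is below the Sham mean in Pushen library 3 at -1.10.

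On the per-length FPKM scale the order of levels was alike at the top in all groups. S100a1 averaged 91.6 ± 10.4 FPKM in Pushen, 103 ± 22.6 FPKM in PT and 47.7 ± 2.61 FPKM in Sham (SD, n = 3 each). S100b followed with 57.1 ± 1.78, 64.5 ± 14.04 and 39.5 ± 2.25 FPKM in Pushen, PT and Sham, and its libraries overlapped those of S100a1 in PT and not in Pushen or Sham. In Pushen the next were S100a16 and S100a11, which overlapped, then S100a6, S100a13 and S100a10, which overlapped in turn, then S100a4, S100a9 and S100a8. In PT each gene from S100a11 and S100a16 down to S100a13, S100a6, S100a10, S100a4 and S100a9 overlapped its neighbour in the order, and S100a8 was apart at the bottom. In Sham the order was S100a16, S100a10, S100a13, S100a6, S100a11, S100a9, S100a8 and S100a4, and S100a4 was apart at the bottom. S100a4 therefore ranked last in Sham and above both calprotectin genes in mean FPKM in Pushen and PT.

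The summed FPKM of the 10 members was 268 ± 30.3 in Pushen, 287 ± 67.9 in PT and 137 ± 9.91 in Sham (SD, n = 3 each). S100a1 held a steady share of this sum, 34.2% ± 0.12 in Pushen, 35.9% ± 0.95 in PT and 35.0% ± 1.70 in Sham. S100a11 made up 9.73% ± 2.17 in Pushen, 9.27% ± 0.93 in PT and 2.82% ± 1.14 in Sham, and S100a4 made up 2.87% ± 0.62, 3.38% ± 1.08 and 0.51% ± 0.06 in Pushen, PT and Sham. S100b made up 21.5% ± 2.09 in Pushen, 22.6% ± 0.66 in PT and 28.9% ± 0.47 in Sham. The S100b share was thus lower in the infarct groups although its level was higher, and all 6 infarct libraries were below all 3 Sham libraries. S100a10 made up 5.73% ± 0.76, 5.48% ± 0.74 and 7.38% ± 1.37 in Pushen, PT and Sham. On counts, not divided by length, S100b came first in every group. Its mean share of the members' counts was 31.4%, 33.7% and 39.4% in Pushen, PT and Sham, against 23.5%, 25.1% and 22.3% for S100a1.

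**Figure D4:**
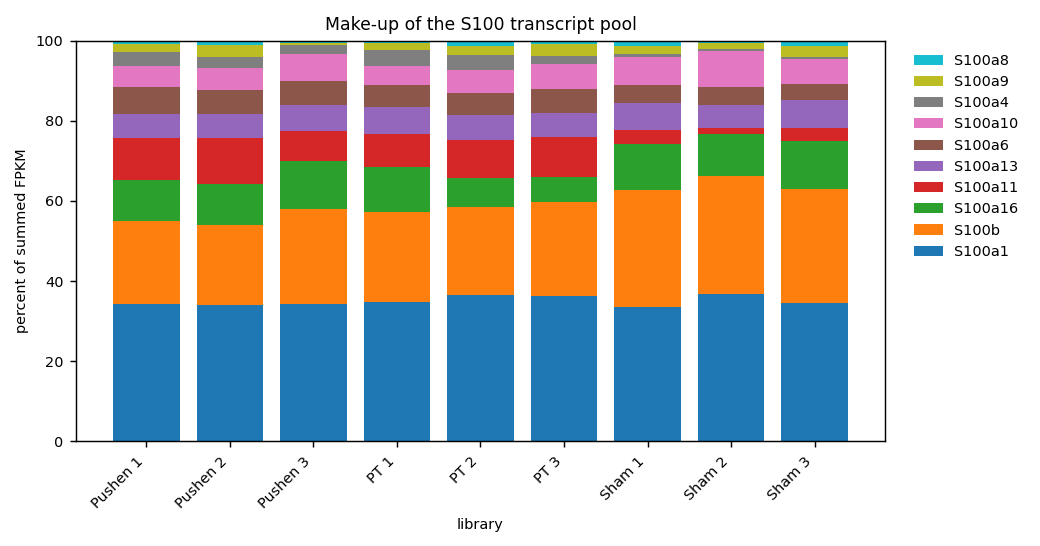
Share of the summed FPKM of the 10 S100 genes held by each gene in each library, with Pushen, PT and Sham libraries from left to right. The S100a11 and S100a4 bands are wider in infarct libraries and the S100b band is wider in Sham libraries, at a mean of 28.9%.

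The genes with the profile most like each of the other members over the 9 libraries were named by the same root mean square difference. For S100a4 they were C1qa (0.278), Vim (0.311) and C1qb (0.321), and for S100a11 Dnase1l1 (0.264), Rab32 (0.271) and Ly86 (0.273). For S100a6 they were Pear1 (0.070), Sned1 (0.081) and Perp (0.089), and for S100b Col16a1 (0.055), Dnm2 (0.062) and Taldo1 (0.065). For S100a10 they were Marcksl1 (0.086), Hebp1 (0.088) and Ost4 (0.088), and for S100a16 Catip (0.155), Enpp6 (0.180) and Aif1l (0.208). For S100a8 they were AU021092 (0.317), Cast (0.318) and Pxdc1 (0.325), and for S100a9, after S100a8, Htra4 (0.428) and Sfn (0.433). The nearest genes were farthest for the calprotectin genes. These also have the lowest counts summed over each infarct group, and the part of this in the distance was not tested.

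The cluster on chromosome 3 holds 9 of the members between 90511034 and 93564643, a span of 3053610 bases. From S100a1 to S100a9 the members lie within neighbouring stretches of at most 60619 bases, and a gap of 2824766 bases then separates S100a9 from S100a11 and S100a10. The span has 75 protein-coding genes, of which 66 are not members, many of them genes of the skin barrier. Of these 66 genes 49 had no count in any library and 3 reached the level for testing. None of those 3 was called in PT against Sham: Lor had a log2 fold change of -0.08 ± 0.21 (SE), Gm9774 of 0.46 ± 0.45 and Tchh of -0.47 ± 0.17 (edgeR adjusted p = 0.0649). All 10 members have a first exon with no coding sequence in their main annotated transcript, and 9 of them have 3 exons, S100a13 having 4.

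Receptors and partners of S100 proteins were read from lists of the same kind. Of 6 receptor genes 5 were tested and 3 rose in PT against Sham in every fit that left out 1 library. Over all tested genes 19.1% rose. Ager and Cd36, at Sham means of 0.157 and 0.063 FPKM, reached the level for testing only through the infarct groups. Their being tested and their rise are therefore linked. Ager, which encodes RAGE, was at 1.49, 0.76 and 0.78 FPKM in PT libraries 1, 2 and 3 and at 0.11, 0.14 and 0.22 FPKM in Sham libraries, with a log2 fold change of 2.55 ± 0.34 (SE, edgeR adjusted p = 0.00111). Cd36, a scavenger receptor that has been described to bind calprotectin, rose by 5.92 ± 0.54 on the log2 scale (SE), and Fgfr1, a growth factor receptor that S100B can engage, by 1.25 ± 0.15. Cd36 was at 4.41 ± 0.873 FPKM in PT and 0.063 ± 0.040 FPKM in Sham (SD, n = 3 each). The size of its rise thus rests on a Sham value near 0. Tlr4 was below the level for testing, at 0.713 ± 0.104 FPKM in PT and 0.12 ± 0.03 FPKM in Sham (SD, n = 3 each). In Pushen libraries Ager was at 0.48, 0.54 and 0.55 FPKM, below every PT library, but the log2 difference of -0.95 ± 0.32 (SE) between Pushen and PT did not pass (edgeR adjusted p = 0.707).

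Of 20 intracellular and secreted binding partners 19 were tested, and 8 rose and 4 fell in PT, with a median log2 fold change of 0.38. Anxa2, which encodes the partner of p11, was at 13.57, 12.91 and 8.95 FPKM in PT libraries and at 1.91, 1.78 and 1.96 FPKM in Sham libraries. The groups were far apart, and it rose by 2.59 ± 0.25 on the log2 scale (SE, edgeR adjusted p = 0.000461), while its partner gene S100a10 rose by 0.57 ± 0.12. Anxa1, whose protein S100A11 binds, rose by 3.29 ± 0.32 (SE), with 7.43, 6.15 and 4.75 FPKM in PT libraries against 0.66, 0.53 and 0.59 FPKM in Sham libraries. Ahnak, a scaffold of the p11 and annexin A2 complex, rose by 1.42 ± 0.21 (SE), and Myh9, the non-muscle myosin bound by S100A4, by 0.87 ± 0.11. Il1a, whose protein can leave cells with S100A13, rose by 2.82 ± 0.48, and Fgf1, likewise, by 0.49 ± 0.08.

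The 4 partners that fell were Syt1, a synaptic vesicle protein (-0.74 ± 0.16, SE), Atp2a2, the calcium pump that S100A1 regulates (-0.52), Sugt1 (-0.41) and Cacybp, the calcyclin-binding protein (-0.35). In fits that left out 1 library between 1 and 5 partners fell, and the lowest count came without Sham library 1, where Atp2a2, Sugt1 and Cacybp had edgeR adjusted p-values of 0.052, 0.0896 and 0.131. Without Sham library 2 it was 2. Cacybp alone lost its call without PT library 1 (0.111), PT library 2 (0.0593), Pushen library 1 (0.0503) or Pushen library 2 (0.0564). Of 12 neuron markers 9 fell in the same comparison, with sums of 882 to 1124 FPKM in PT and 1305 to 1467 FPKM in Sham, and Syt1 is in that list too. With 1 library left out between 6 and 10 neuron markers fell. The part of the lower neuron markers in the falls of the partners was not tested. In Pushen against PT 0 receptors and 0 partners were called by edgeR or by DESeq2, with 1 receptor and 1 partner, Ager and Fgf1, at an unadjusted p under 0.05.

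**Figure D5:**
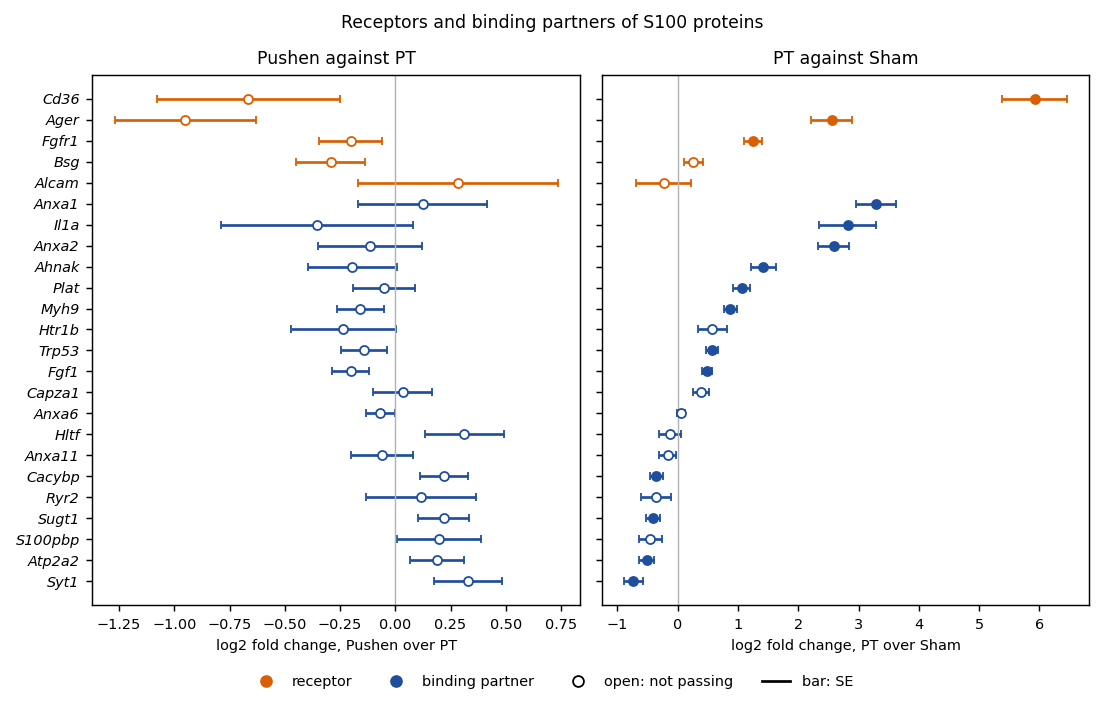
Log2 fold change with its SE for the tested receptors (orange) and binding partners (blue) of S100 proteins, with Pushen against PT on the left and PT against Sham on the right, on axes of different range. Filled points passed an adjusted p under 0.05. In PT against Sham Cd36 is farthest right at 5.92, with a Sham mean of only 0.063 FPKM, and in Pushen against PT all points are open.

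Other EF-hand genes gave a background for the family. Of 44 calcium-binding EF-hand genes outside it 40 were tested, and 9 rose and 10 fell in PT against Sham, with a median log2 fold change of -0.15. Aif1, the microglial protein Iba1, rose by 2.23 ± 0.19 (SE), Lcp1, an actin bundler of blood cells, by 3.41 ± 0.38 and Sparc, a matrix protein, by 1.64 ± 0.23. Ppp3r1, the regulatory subunit of calcineurin, fell, with a log2 fold change of -0.53 ± 0.10. These counts depended on single libraries. The number that rose was 5 without PT library 1, Sham library 1 or Sham library 2, and the number that fell was 5 without Sham library 1 and 6 without PT library 2, Sham library 2 or Sham library 3. In Pushen against PT 0 were called by edgeR or by DESeq2, with 3 at an unadjusted p under 0.05.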

How the data were processed

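Per the file headers, the deposited table holds a count and an FPKM column for each of 9 libraries. The counts are whole reads per gene, not normalized, and FPKM is the authors' own scaling of them for transcript length and sequencing depth. The submitters' processing notes name Bowtie 0.12.2 and the mouse build mm8, yet 94.2% of identifiers found also in GENCODE M21 carry the coordinates of GRCm38, as do all 10 S100 genes. No source used here names the counter or its strand setting. Per the labels' protocols the kit was Illumina TruSeq. All 18 columns matched a library by name, with 0 unmatched.

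A gene was tested where its mean FPKM over all libraries was at least 0.5 (16740 genes). A gene low in Sham could reach this level through the infarct groups alone, which ties its being tested to its rise. Deposited counts were scaled by trimmed means, fitted with the 3 groups together in edgeR 4.0.16 (R 4.3.3) and tested by quasi-likelihood, with Benjamini-Hochberg adjustment over all tested genes. The SE is the log2 fold change divided by the root of F. Alternatives were other filters and scalings, DESeq2 1.42.0, limma 3.58.1 on log2(FPKM + 0.1) and log2(FPKM + 1), 2-group fits, a replicate block, a 2-fold threshold and libraries left out. The scripts were tested on simulated data.

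The members, gene lists, marker lists and naming rule were chosen with earlier results of these data known. The rule named all members, the 3 genes of most similar profile to each (log2 counts scaled to library size, prior count 2, mean FPKM of at least 1), and of each list the defining genes and up to 5 of smallest p in PT against Sham. Fgf1, Il1a, Atp2a2, Sugt1 and Syt1 as a partner fall outside the rule and were named after their values were seen. Cxcr2 was likewise named after its values were seen. Marker lists not described further gave 8 of 10 endothelial, 7 of 10 microglia, 3 of 6 choroid plexus and 3 of 8 striatal genes higher in PT. Without PT library 1 or Sham library 2 the endothelial count was 5. The microglia count lay between 5 and 7 with 1 library left out. With 1 library left out the choroid plexus count lay between 1 and 4, and was 1 without PT library 1 or any 1 Sham library. The striatal count was 1 without PT library 1, 8 without PT library 3 and 0 without any 1 Sham library. Promoter windows came from RefSeq (GRCm38.p6), where 9 members matched. With 1 library per dose, dose was not modelled.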

Additional observations from a re-analysis of the deposited data

How the results depend on the processing

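In PT against Sham the 7 S100 calls held under every other filter, scaling and tool tried and with each library left out, and with a 2-fold threshold 2 members passed there and 2 in Pushen against Sham. After removal of group means, correlations of same-numbered libraries lay between -0.220 and 0.099, and those of differently numbered ones between -0.105 and 0.152. They gave no sign that replicate numbers pair the libraries, but cannot exclude it. With the number as a block the members called stayed at 0, 7 and 6 in Pushen against PT, PT against Sham and Pushen against Sham, 2 partners fell in PT, and 242 of all genes fell in Pushen against Sham, against 457 without it. In Pushen against PT signs near 0 turned with no call: S100a11 was -0.0297 and -0.0270 with limma at pseudocounts of 0.1 and 1, -0.00972 with upper-quartile scaling, -0.00403 with the block and -0.111 without PT library 1 and Pushen library 2, where S100a13 was 0.0232. With 1 library, or PT library 1 and Pushen library 2, left out, log2 fold changes there ran from -0.132 to 0.0440 for S100a10, -0.177 to 0.234 for S100a11, -0.368 to 0.0288 for S100a13, -0.0888 to 0.677 for S100a16, -0.121 to 0.172 for S100a6, -0.740 to 0.147 for S100a8 and -0.800 to 0.218 for S100a9. The cause of these shifts was not tested.

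Counts over all genes moved more. The 2-fold threshold gave 789 calls (787 up, 2 down) in PT against Sham and 613 (613 up, 0 down) in Pushen against Sham. With libraries left out, PT against Sham gave 3198 to 5799 calls with 782 to 2441 falls (1011 without PT library 1 and Pushen library 2), Pushen against PT 0 to 5 calls with 0 to 3 up and 0 to 2 down (2 calls, 1 up and 1 down, without that pair), and Pushen against Sham 1538 to 3736 calls with 1431 to 2568 up and 84 to 1168 down. In Pushen against PT DESeq2 gave 49 calls (20 up, 29 down) and the 2-group fit 1, a fall. Falls in Pushen against Sham were 1104 with DESeq2, 239 with library size only, 219 and 225 with limma and 1239 in the 2-group fit. With the 2-fold threshold 3 partners rose and 0 fell in PT, and 3 other EF-hand genes rose and 0 fell. With libraries left out 5 to 11 other EF-hand genes rose and 5 to 12 fell (5 rose without PT library 1 and Pushen library 2), and 1 to 5 partners fell. The S100a8 to S100a9 ratio in Sham was 0.656 on counts and 0.489 on FPKM, which is also scaled for length. The main annotated transcripts are 486 bases for S100a8 and 512 bases for S100a9, and the source of the difference was not tested. Between 48 and 354 counts per library stand behind S100a8 and S100a9, and 30 to 36 per Sham library behind S100a4.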
